A study of Mus musculus with 11 samples.

Results

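The genes described here are *Otx1*, *Otx2*, *En1*, *En2*, *Gbx1*, *Gbx2*, *Zic1*, *Zic2*, *Zic4* and *Zic5*, 10 transcription factor genes of anteroposterior and dorsal neural patterning. They were taken by name, as 10 of 21755 protein-coding genes on chromosomes 1 to 19 and X, by a rule that uses no measured value, although earlier results of these data were known when the list was drawn up. The measurement was H3K27me3, the histone mark of Polycomb repression, profiled by CUT&Tag in the embryonic mouse forebrain. Tissue was taken from the cortex (CTX) and from the ganglionic eminences (GEs) ventral to it, which are divided into a medial (MGE), a caudal (CGE) and a lateral (LGE) eminence. In CUT&Tag an antibody tethers a transposase to modified nucleosomes, so that the DNA around them is cut and sequenced.

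All samples came from wild-type C57BL/6J mice, with 2 samples from MGE and 3 each from CGE, LGE and CTX, and none carried a transgene or a treatment. In the regions with 3 samples, a pair shares replicate number 2 and may be libraries of the same replicate, so that each region has 2 replicate numbers. The study pooled several embryos for a sample. The protocol in the labels names embryos of E12.5 and E14.5, of which the main text of the study assigns E12.5 to this assay, and no sample carries an age of its own. That protocol also speaks of mixing nuclei of all regions before the reaction, whereas each sample is labelled with a single region, and the lists are read here as labelled. Peaks were called by the authors on the pooled reads of all samples of a region, which gave 1 list of broad peaks for each. The values below therefore carry no replicate error, no test between lists was possible, and whether a difference exceeds the variation among embryos is unknown. Each region holds many cell types, and fewer cells with the modification cannot be told apart from less modification per cell.

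The Otx and Gbx proteins are homeodomain factors that meet at the border of the midbrain and hindbrain, where *Otx2* marks the anterior side and *Gbx2* the posterior side. The engrailed genes *En1* and *En2* are homeobox genes expressed around that border. The Zic genes encode zinc finger factors of the dorsal neural tube, the forebrain midline and the meninges, and they lie in divergently transcribed pairs, *Zic1* with *Zic4* and *Zic2* with *Zic5*. H3K27me3 is laid down by Polycomb repressive complex 2, often as broad domains over CpG-rich developmental genes.

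Sequence at the 5′ ends shows how differently the modification lay over these genes. RefSeq promoters of GRCm38.p6, each running from 250 bases before to 50 after a transcript start, were matched by symbol for 6 of the 10 genes (*Gbx2*, *En1*, *Zic1*, *Zic4*, *Otx2* and *Zic5*). *Otx1*, *En2*, *Gbx1* and *Zic2* had no match. The first promoter below was under a peak over its whole length in all lists, the next pair had no covered base in any, and the last pair differed between lists. Capitals mark each CpG (the letters CG, which read the same on both strands), and every sequence is 300 bases, 5′ to 3′ on the strand of its gene.
*Gbx2*, chr1:89931127-89931426, minus strand: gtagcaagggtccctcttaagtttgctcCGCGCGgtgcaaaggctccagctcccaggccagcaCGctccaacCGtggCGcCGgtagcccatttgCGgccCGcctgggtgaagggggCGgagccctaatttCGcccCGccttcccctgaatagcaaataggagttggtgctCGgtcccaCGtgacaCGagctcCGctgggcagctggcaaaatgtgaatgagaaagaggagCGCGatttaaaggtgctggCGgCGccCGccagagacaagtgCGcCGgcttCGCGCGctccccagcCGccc
*En1*, chr1:120602237-120602536, plus strand: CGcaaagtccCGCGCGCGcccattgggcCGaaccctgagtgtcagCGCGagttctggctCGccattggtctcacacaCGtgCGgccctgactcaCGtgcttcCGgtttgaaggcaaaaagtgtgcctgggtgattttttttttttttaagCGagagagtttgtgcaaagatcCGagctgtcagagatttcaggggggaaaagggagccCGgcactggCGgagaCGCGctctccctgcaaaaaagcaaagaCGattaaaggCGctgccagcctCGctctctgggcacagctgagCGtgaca
*Zic1*, chr9:91365719-91366018, minus strand: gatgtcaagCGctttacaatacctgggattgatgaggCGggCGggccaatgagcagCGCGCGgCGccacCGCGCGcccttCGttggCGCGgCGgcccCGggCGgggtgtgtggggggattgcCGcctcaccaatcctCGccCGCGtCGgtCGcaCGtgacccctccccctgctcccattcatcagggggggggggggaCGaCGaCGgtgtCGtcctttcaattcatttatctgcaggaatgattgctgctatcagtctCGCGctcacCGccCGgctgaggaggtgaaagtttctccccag
*Zic5*, chr14:122465609-122465908, minus strand: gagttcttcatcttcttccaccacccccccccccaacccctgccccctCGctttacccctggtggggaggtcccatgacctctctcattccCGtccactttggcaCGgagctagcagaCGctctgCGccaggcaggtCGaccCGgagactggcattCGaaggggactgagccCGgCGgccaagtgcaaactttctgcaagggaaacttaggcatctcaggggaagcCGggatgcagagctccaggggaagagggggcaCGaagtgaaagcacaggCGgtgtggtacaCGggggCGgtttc
*Otx2*, internal start, chr14:48667459-48667758, minus strand: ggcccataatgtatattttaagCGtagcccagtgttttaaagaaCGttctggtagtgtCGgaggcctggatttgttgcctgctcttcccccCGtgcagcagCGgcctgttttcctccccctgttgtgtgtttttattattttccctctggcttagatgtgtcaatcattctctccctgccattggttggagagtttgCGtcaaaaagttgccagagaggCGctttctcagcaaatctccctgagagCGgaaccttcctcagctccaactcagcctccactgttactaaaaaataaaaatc

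The *Gbx2* promoter held 27 CpG, a number that 15.5% of all 32851 RefSeq promoters reached, and peaks covered 100% of it in every list. The *En1* promoter held 23 CpG (reached by 21.5% of promoters) and the *Zic1* promoter 31 (reached by 10.6%), yet coverage of both was 0% in all 4 lists. With the peaks as deposited, CpG-rich start sites therefore stood at both ends of the range of coverage. Both uncovered promoters lay in gaps between peaks. The gap was shorter than 3 kb in every list at *En1*, and in MGE and CGE at *Zic1*. Joining peaks less than 3 kb apart, an alternative used below, closes such gaps. The *Zic5* promoter, with 15 CpG (reached by 34.6%), was covered over 29.0% in MGE, 45.7% in CGE and 7.67% in LGE, against 0% in CTX. The internal *Otx2* promoter, with 8 CpG (reached by 48.7%), was covered over 100% in CTX and 0% in the GEs. The median RefSeq promoter held 7 CpG.

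For each gene, a window of the gene body with 10 kb either side was taken from the GENCODE M21 annotation, and window coverage is the percentage of its bases under peaks. All 10 windows held peaks in all 4 lists. The median window coverage over the 10 genes was 51.5% in MGE, 46.0% in CGE and 41.0% in LGE, against 39.0% in CTX. Over all protein-coding genes the median was 0% in each list, and over the 1874 genes with a mean coverage of 10% or more it was between 13.9% (MGE) and 17.2% (CGE). The genes thus lay in the upper part of the distribution. The lowest rank was that of *Zic5* in CTX, which exceeded 94.3% of genes, *Gbx1* exceeded 94.7% to 97.1%, and *En1* and *Gbx2* exceeded at least 99.8% in each list.

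**Figure D1:**
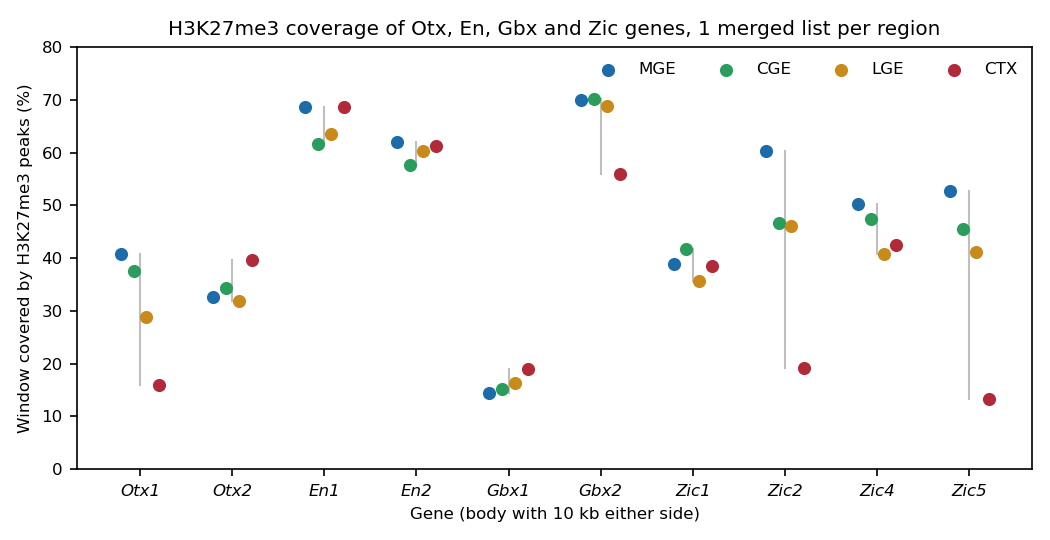
Window coverage (y axis, percent of bases under H3K27me3 peaks, gene body with 10 kb either side) of each of the 10 genes (x axis), with 1 point per merged list and a grey line from the lowest to the highest list. *En1*, *En2* and *Gbx2* sit above 55% in every list, *Gbx1* below 20%, and the CTX points of *Otx1*, *Zic2* and *Zic5* fall to 16.0%, 19.2% and 13.2%, well under those of the GEs.

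The differences between lists fell on few of the genes. Window coverage ranged over 10 percentage points or more between lists for 4 genes, *Zic2* (41.1 points), *Zic5* (39.5), *Otx1* (24.7) and *Gbx2* (14.1), against 2.02% of all genes and 14.1% of the genes with a mean coverage of 10% or more. For the same 4 genes the mean of the GEs lay 10 points or more above CTX, against 0.239% of all genes (52 of 21755) and 2.61% of the genes with a mean coverage of 10% or more. For none of the 10 did it lie 10 points or more below CTX, against 0.23% of all genes. *Zic2* and *Zic5* are neighbours whose windows share 10.2 kb, so the 4 genes stand for 3 loci. For *Zic2*, *Zic5* and *Otx1* the difference of 10 points held under 7 of 7 alternative treatments of the peaks and windows, whereas for *Gbx2* it held under 4 of 7. In all, the CTX list covered 31.2 Mb, against 24.5 Mb for MGE, 32.9 Mb for CGE and 26.4 Mb for LGE. The part of read depth in these differences was not tested.

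**Figure D2:**
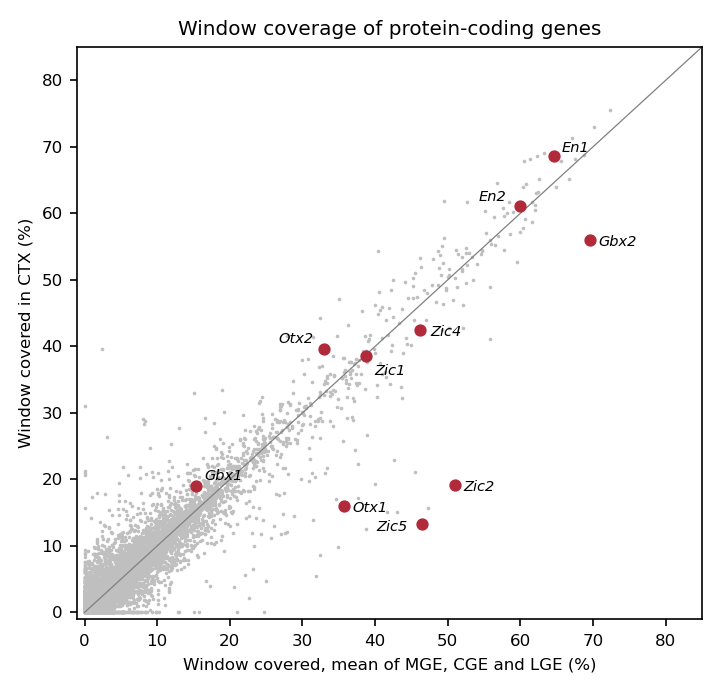
Window coverage of the 10 genes (red, labelled) and of the other protein-coding genes (grey), with the mean of MGE, CGE and LGE on the x axis, CTX on the y axis (both in percent) and a line where they are equal. *Zic2*, *Zic5*, *Otx1* and *Gbx2* lie below the line by 31.8, 33.2, 19.7 and 13.6 points, and *Otx2* lies above it, with a difference of −6.61.

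*Zic2* and *Zic5*, zinc finger genes whose human *ZIC2* counterpart is a known gene of holoprosencephaly, showed the widest contrast between the GEs and CTX. *Zic2* (ENSMUSG00000061524.8, chr14:122475435-122479852, plus strand) had a window coverage of 60.3% in MGE, 46.6% in CGE and 46.0% in LGE, against 19.2% in CTX. Its gene body was covered over 80.4% in MGE, 38.1% in CGE and 37.2% in LGE, against 0% in CTX. MGE was the highest list and CTX the lowest on both measures, with CGE and LGE within 1 point of each other. The excess of MGE over CGE and LGE rests on gaps between their peaks. With peaks less than 3 kb apart joined, window coverage was 82.64% in MGE, 82.63% in CGE and 82.05% in LGE, against 19.2% in CTX. In the 2 kb upstream of the 5′ end, referred to as the promoter from here on, coverage was 100% in MGE, 36.4% in CGE and 38.2% in LGE, against 0% in CTX.

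The peaks over *Zic2* were of different shapes. In MGE a single peak of 7304 bases ran from −3.75 kb to 3.55 kb of the 5′ end, with a fold enrichment of 1.73 over local background and a −log10 q of 12.5, both as the peak caller gave them. In CGE and LGE the same interval held 3 separate peaks, and the 5′ end itself lay between them. CTX had no peak in that interval. Its peaks in the *Zic2* window lay on either side of the gene, 1 of 1525 bases from −7.16 kb to −5.64 kb and 1 of 3156 bases from 7.41 kb to 10.6 kb. Both were inside domains that the GEs also carried, with at least 97.1% of the first and at least 83.3% of the second covered in each GE list.

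*Zic5* (ENSMUSG00000041703.7, chr14:122456795-122465677, minus strand) had a window coverage of 52.7% in MGE, 45.4% in CGE and 41.1% in LGE, against 13.2% in CTX. Its gene body was covered over 43.5%, 41.1%, 33.0% and 6.88% in the same order, and its promoter over 28.4%, 30.5%, 27.4% and 0%. CTX was again the lowest list on all 3 measures. The part of the body that CTX covered was 1 peak of 611 bases with a −log10 q of 3.87, where the GEs had peaks of 2932 (LGE), 3720 (CGE) and 3879 bases (MGE) over the 5′ portion. Downstream of *Zic5*, a CTX peak of 1686 bases with a −log10 q of 3.46 lay within GE peaks of 3761 to 4719 bases that reached *Gm5089*, the next protein-coding gene.

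Taken as 1 locus of 43058 bases, the windows of *Zic2* and *Zic5* were covered over 53.6% in MGE, 44.7% in CGE and 41.2% in LGE, against 16.2% in CTX. Of the bases under a peak in any list, 47.0% (11.1 kb) were covered in the 3 GEs and not in CTX, 27.2% were covered in all 4, and 15.7% were covered in MGE alone. CTX alone held 1.68%. The coverage of CTX was thus nearly a subset of that of the GEs. The noncoding transcript *2610035F20Rik*, between the genes, had 3.52 kb covered in MGE, 2.34 kb in CGE, 2.52 kb in LGE and 0 in CTX.

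The stretch between *Zic5* and *Zic2* that remained under peaks in all lists is shown because it holds the CTX peak of highest fold enrichment at the locus (3.83, with a −log10 q of 19.9). The 300 bases at the middle of that CTX peak, written on the plus strand of GRCm38.p6, were covered over 100% in every list and held 16 CpG.
Middle of the peak between *Zic5* and *Zic2*, chr14:122468885-122469184, plus strand: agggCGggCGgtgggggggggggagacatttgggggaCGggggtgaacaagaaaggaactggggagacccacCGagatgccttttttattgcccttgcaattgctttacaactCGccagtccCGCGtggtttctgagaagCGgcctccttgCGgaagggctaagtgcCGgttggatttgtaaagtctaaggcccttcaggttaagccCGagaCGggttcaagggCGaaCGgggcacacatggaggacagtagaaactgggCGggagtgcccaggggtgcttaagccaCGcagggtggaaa

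**Figure D3:**
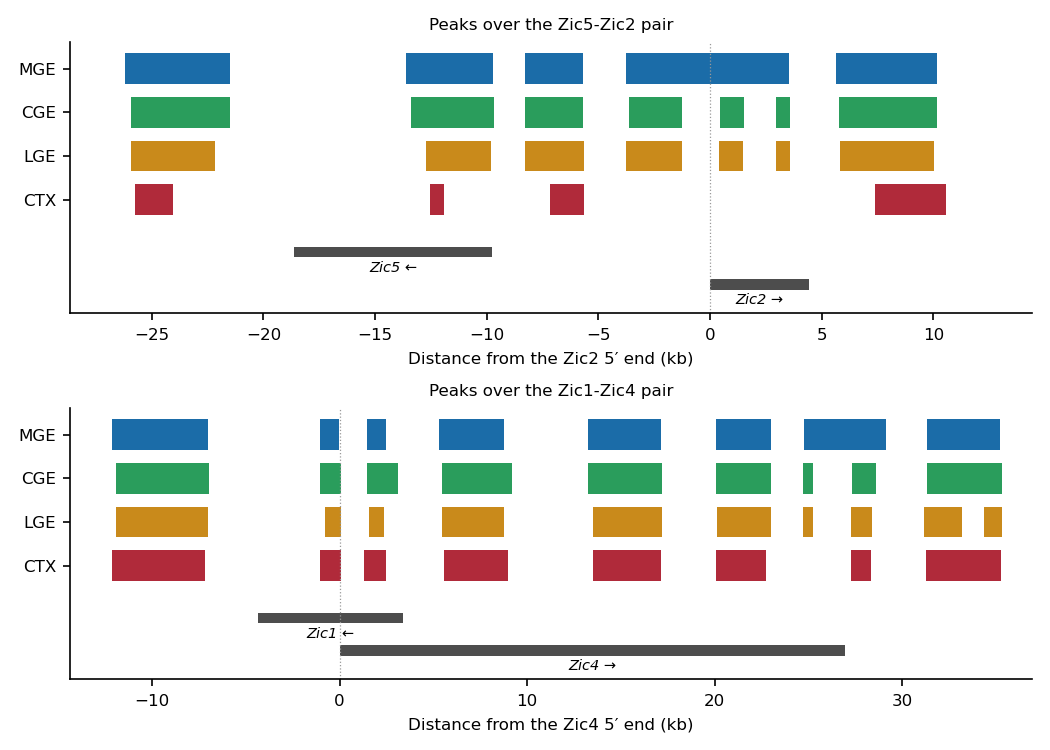
H3K27me3 peaks of the 4 lists (coloured boxes, 1 row per list) over the windows of the *Zic5* and *Zic2* pair (upper panel) and the *Zic1* and *Zic4* pair (lower panel), by distance in kb from the 5′ end of *Zic2* and of *Zic4* (dotted line), with gene bodies in grey and arrows for strand. In the upper panel the row of CTX is empty over *Zic2* and short over *Zic5*, while in the lower panel the rows are nearly alike.

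The genes most like *Zic2*, by Euclidean distance in window coverage over the 4 lists, were its neighbour *Zic5* (10.9 points), *Dmrta2* (11.1) and *Fezf2* (14.2). *Dmrta2*, a doublesex-related factor of dorsal telencephalic progenitors, was covered over 50.1% in MGE, 44.4% in CGE and 47.3% in LGE, against 15.6% in CTX. *Fezf2*, a zinc finger gene of the forebrain, was covered over 46.5%, 46.9%, 43.1% and 21.1% in the same order. CTX was the lowest list in both, which follows from their choice by likeness to *Zic2* and is no separate result.

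*Zic1* and *Zic4*, the other pair, did not show this contrast with the peaks as deposited. *Zic1* (ENSMUSG00000032368.14, chr9:91358058-91365810, minus strand) had a window coverage of 38.9% in MGE, 41.8% in CGE and 35.6% in LGE, against 38.5% in CTX, and *Zic4* (ENSMUSG00000036972.14, chr9:91362413-91389348, plus strand) of 50.3%, 47.4%, 40.8% and 42.5%. The mean of the GEs was 0.287 points above CTX for *Zic1* and 3.72 points above for *Zic4*. LGE was the lowest list for *Zic1* under all 7 alternatives as well. For *Zic4* LGE was the lowest, but CTX was the lowest under 3 of 7 alternatives, and with peaks less than 3 kb apart joined the mean of the GEs lay 14.5 points above CTX. Their bodies overlap by 3.40 kb and their windows by 23.4 kb, so most of these values rest on the same peaks. Joined into 1 locus of 51291 bases, 71.0% of the bases covered in any list were covered in all 4, and 3.67% in the GEs and not in CTX.

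At the 5′ ends of this pair the coverage differed between the genes. The *Zic1* promoter was covered over 4.05% in MGE and 0% in the other lists, and neither of its annotated transcript starts lay under a peak, while its body was covered over 21.5% (LGE) to 35.8% (CGE). The *Zic4* promoter was covered over 51.3% in MGE, 51.6% in CGE and 39.9% in LGE, against 51.6% in CTX. Of the 6 annotated starts of *Zic4*, 4 were under peaks in MGE, 6 in CGE and 5 in LGE, against 6 in CTX. A difference between lists lay at the 3′ end of *Zic4*, where MGE had 1 peak of 4376 bases from 24.8 kb to 29.1 kb and the other lists covered 24.8% (CTX) to 40.0% (CGE) of it. There CGE and LGE had separate peaks less than 3 kb apart, of which CTX lacked the first. With such peaks joined, the *Zic4* window was covered over 74.1% in MGE, 75.4% in CGE and 66.7% in LGE, against 57.5% in CTX.

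*Otx1* and *Otx2*, which pattern the anterior neural plate and the developing cortex, differed between the GEs and CTX in opposite directions. *Otx1* (ENSMUSG00000005917.15, chr11:21994764-22002897, minus strand) had a window coverage of 40.7% in MGE, 37.6% in CGE and 28.8% in LGE, against 16.0% in CTX. Its body was covered over 79.6%, 80.8%, 66.6% and 40.2% in the same order. LGE lay between the other GEs and CTX on both measures. The bases that CTX covered were all covered in the GEs as well, with 0% of the covered bases in CTX alone, 36.9% in all 4 lists and 29.2% in the 3 GEs without CTX.

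Over the *Otx1* body, MGE had 1 peak of 8429 bases and CGE 1 of 8516, both reaching past the 3′ end. In LGE this domain was a peak of 5417 bases and one of 1342 bases, and in CTX it was one of 2648 and one of 624 bases. The CTX peaks were also the weakest by q, with −log10 q of 4.23 and 1.77, against 17.1 in MGE, 23.6 in CGE and 32.3 in LGE for the widest peak. Their fold enrichment did not follow that order, since the widest peak had 2.18 in CTX, the highest value, and 1.67 in MGE, 1.71 in CGE and 1.92 in LGE. Over the promoter CGE stood above the other lists, with a coverage of 68.2% in MGE, 100% in CGE and 67.0% in LGE, against 61.9% in CTX. An additional MGE peak of 1357 bases ended at −4.16 kb of the 5′ end, in the neighbouring gene *Ehbp1*, with no covered base there in the other lists.

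*Otx2* (ENSMUSG00000021848.16, chr14:48657677-48673819, minus strand) had a window coverage of 32.5% in MGE, 34.4% in CGE and 31.9% in LGE, against 39.6% in CTX. The mean of the GEs minus CTX was −6.61 points, the lowest of the 10 genes with the peaks as deposited but not with joined peaks (−2.72, against −4.21 for *En1*) or equal numbers of peaks (−6.61, against −7.11 for *En1*). CTX was the highest list under 7 of 7 alternatives. The promoter was covered over 80.7% to 83.9% in all lists. The peak over the 5′ end was 1858 to 1914 bases wide in every list, and its fold enrichment of 3.31 in MGE, 3.36 in CGE, 3.44 in CTX and 3.74 in LGE was above the median of the peaks in these windows, which lay between 1.75 (CGE) and 2.01 (LGE).

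The excess of CTX at *Otx2* came from inside the gene. CTX had 1 peak of 4871 bases that ended 8.90 kb downstream of the 5′ end, where each GE list had a pair of peaks with a gap between them. Farther downstream, a CTX peak of 2601 bases ran to 13.8 kb. The GE peaks there, of 1370 (MGE) to 1805 bases (CGE), ended at 12.6 kb (MGE) to 12.9 kb (CGE). Of the 8 annotated *Otx2* starts, 3 were under peaks in MGE, 3 in CGE and 3 in LGE, against 7 in CTX. The 4 that were covered in CTX alone lie 6.17 kb to 6.31 kb inside the gene, and one of them belongs to the internal promoter printed above. This contrast rests on a gap in the GE peaks, and with peaks less than 3 kb apart joined all 8 starts were covered in every list.

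**Figure D4:**
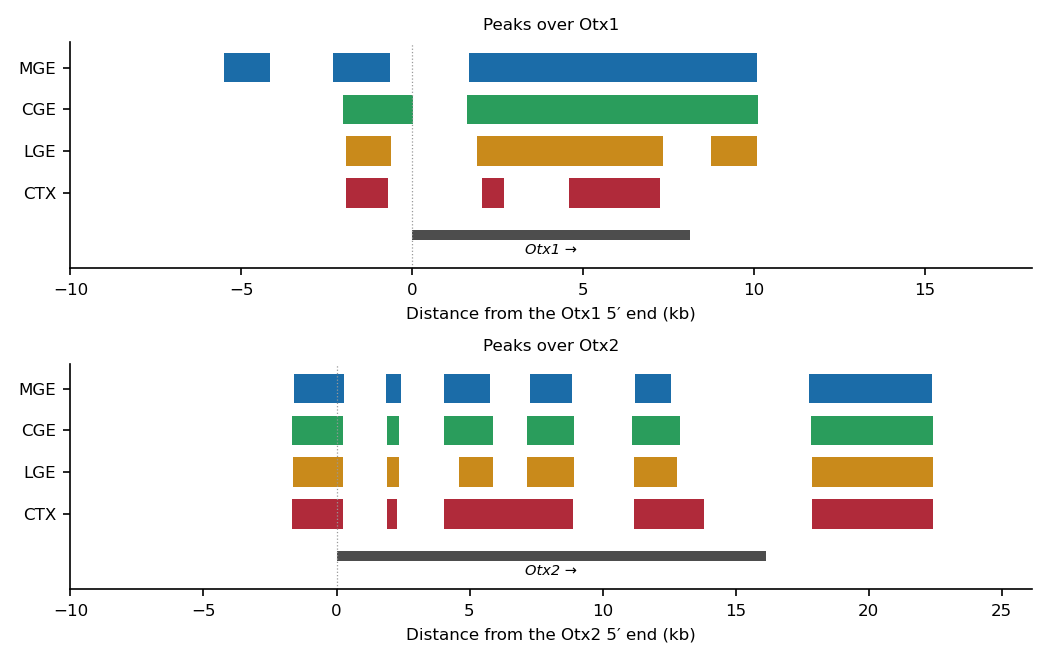
H3K27me3 peaks of the 4 lists (coloured boxes, 1 row per list) over the windows of *Otx1* (upper panel) and *Otx2* (lower panel), by distance in kb from the 5′ end, with transcription running to the right. For *Otx1* the peaks shorten from 8429 bases in MGE and 8516 in CGE to 2648 bases in CTX, and for *Otx2* the CTX peak of 4871 bases bridges a gap that the GE rows leave.

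The engrailed genes *En1* and *En2* were broadly covered in every region. *En1* (ENSMUSG00000058665.8, chr1:120602418-120607992, plus strand) had a window coverage of 68.6% in MGE, 61.5% in CGE and 63.5% in LGE, against 68.6% in CTX. *En2* (ENSMUSG00000039095.8, chr5:28165694-28172166, plus strand) had 62.0%, 57.6%, 60.3% and 61.2% in the same order. With the peaks as deposited CGE was the lowest list for both, and CTX and MGE differed by less than 1 point. This order was not stable for *En1*, where MGE had 68.6% and CTX 59.0% at a q under 0.001, and with peaks less than 3 kb apart joined MGE, at 81.6%, was the lowest list and CTX had 94.4%. LGE was the lowest list for *En1* with flanks of 20 kb and for *En2* with flanks of 5 kb, and CTX was the lowest for *En2* over the gene body alone. Of the bases covered in any list, 90.5% were covered in all 4 for *En2*, the largest share among the 10 genes, and 68.7% for *En1*.

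The same pair differed at the 5′ end. The *En1* promoter was covered over 81.8% to 85.6% in the 4 lists, and the peak on it ended between −0.366 kb (LGE and CTX) and −0.288 kb (CGE) of the 5′ end, which left the 300 bases printed above free. The *En2* promoter had no covered base in any list, although peaks of 6190 to 6534 bases ended at −2.48 kb (LGE) to −2.17 kb (MGE and CTX) of the 5′ end and a peak of 3078 to 3252 bases lay inside the gene body. With a promoter taken as 2 kb either side of the 5′ end, 28.1% (MGE and CTX) to 31.6% (LGE) of it was covered for *En2*. *En2* was the only one of the 10 genes without a covered promoter base in all lists, a state found for 67.2% of all genes.

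*Gbx1* and *Gbx2* lay at opposite ends of the range. *Gbx1* (ENSMUSG00000067724.5, chr5:24502757-24527202, minus strand) had a window coverage of 14.4% in MGE, 15.2% in CGE and 16.3% in LGE, against 18.9% in CTX. Its promoter was covered over 71.2%, 70.9%, 67.2% and 62.9% in the same order. The low window coverage went with a long gene that carried 2 peaks in every list, one of 4723 to 4880 bases over the 5′ end and one of 1525 to 1925 bases near the 3′ end with a fold enrichment of 3.71 (MGE) to 4.19 (LGE). A further peak in LGE (709 bases, −log10 q 1.41) and CTX (1813 bases, −log10 q 2.92) lay in the neighbouring gene *Agap3*, and without these weak peaks, at a q under 0.001, the 4 lists lay between 14.4% (MGE) and 15.2% (CGE).

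*Gbx2* (ENSMUSG00000034486.8, chr1:89927956-89931179, minus strand) had a window coverage of 69.9% in MGE, 70.1% in CGE and 68.8% in LGE, against 56.0% in CTX. Its body was covered over 100% in all 4 lists, and the contrast with CTX lay downstream. In the GEs 1 peak of 11.8 kb (MGE) to 12.1 kb (LGE) began before the 5′ end and ran to 11.4 kb or beyond, whereas CTX had 2 peaks, of 4975 and 4334 bases, with an uncovered interval from 4.38 kb to 7.06 kb. With peaks less than 3 kb apart joined, with flanks of 20 kb, or over the gene body alone, the mean of the GEs no longer lay 10 points above CTX. The promoter was covered over 23.1% to 29.5%, since the peak over the 5′ end began at −0.462 kb (MGE) to −0.590 kb (CTX) and the next one upstream ended at −4.40 kb (LGE) or farther.

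**Figure D5:**
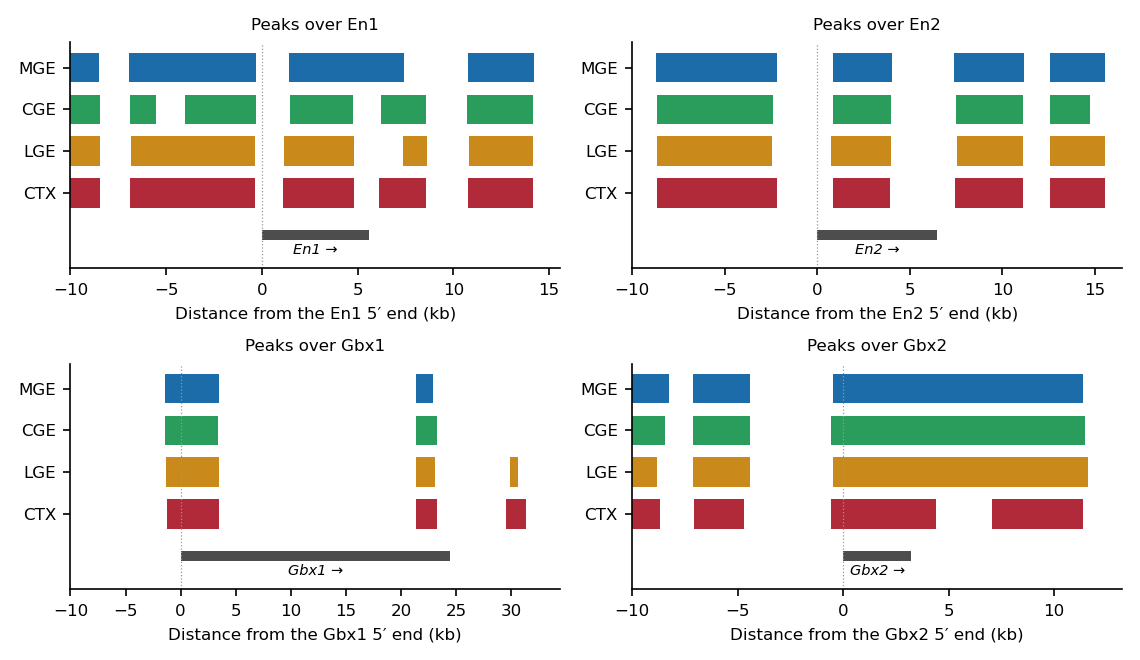
H3K27me3 peaks of the 4 lists (coloured boxes, 1 row per list) over the windows of *En1*, *En2*, *Gbx1* and *Gbx2*, by distance in kb from the 5′ end, with transcription running to the right and gene bodies in grey. The rows are nearly alike, with the gap of CTX downstream of *Gbx2* and the additional LGE and CTX peaks beyond *Gbx1* as the clearest differences.

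Promoters were then compared across the 10 genes. Promoters with 50% or more of their bases under peaks were called marked. In MGE 6 of the 10 were marked, against 6.47% of all protein-coding genes, in CGE 5 against 8.33%, in LGE 4 against 6.52%, and in CTX 5 against 7.14%. The promoters of *Otx1*, *Otx2*, *En1* and *Gbx1* were marked in all 4 lists, that is 4 of 10 against 4.72% of all genes. With the peaks as deposited, *Zic2* was marked in MGE alone, and *Zic4* was just over 50% in MGE, CGE and CTX. The promoters of *Zic1*, *Zic5*, *Gbx2* and *En2* were below 50% in every list.

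Stable and variable coverage separated along the genes as well. Of the bases covered in any list, the share covered in all 4 was 90.5% for *En2*, 78.6% for *Zic1*, 76.2% for *Gbx2*, 73.5% for *Otx2*, 71.9% for *Gbx1*, 69.5% for *Zic4* and 68.7% for *En1*. It was 36.9% for *Otx1*, 26.99% for *Zic2* and 24.7% for *Zic5*, so that 7 genes lay above 50% and the 3 with the widest contrast lay well below. The bases covered in all lists cannot exceed those of the lowest list. For these 3 genes the share therefore largely restates the low coverage in CTX. The bases covered in all lists held more CpG than the uncovered bases of the same window, by amounts that differed between genes. In the *Otx1* window the density was 44.6 CpG per kb under peaks of all 4 lists against 12.8 in uncovered bases, in that of *Zic5* it was 43.4 against 9.73, and in that of *Zic2* it was 25.8 against 14.3, although the *Zic2* window as a whole held 30.1. The densities were close for *En1* (27.5 against 22.8) and *En2* (26.8 against 23.6). Neighbouring bases and overlapping windows are not independent, and these densities are a description.

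Other genes of the same axes were taken from a list of 23, made of genes of the isthmus and midbrain-hindbrain (7), the anterior forebrain (6) and the dorsal midline (8) and of paralogs. The median of their mean window coverage was 30.7%, against 40.9% for the 10 genes and 0.294% for all protein-coding genes. Coverage ranged over 10 points or more between lists for 10 of the 23, against 2.02% of all genes and 14.1% of those with a mean coverage of 10% or more. The mean of the GEs lay 10 points or more above CTX for 3 (0.239% of all genes) and 10 points or more below for 2 (0.23%). In all lists, 11 promoters were marked (4.72% of all genes). Wide ranges and marked promoters were thus not particular to the 10 genes. Of the genes with a range of 10 points or more, 5 were among the 6 anterior forebrain genes, 2 among the 7 of the isthmus and 2 among the 8 of the dorsal midline.

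The widest ranges in that list included the order of lists seen above and its opposite. *Emx2*, a homeobox gene of the dorsal telencephalon, was covered over 46.2% in MGE, 37.7% in CGE and 36.3% in LGE, against 19.3% in CTX, and *Sp8*, a zinc finger gene of the anterior forebrain, over 40.1%, 34.1%, 29.6% and 17.1%, the same order of lists as at *Otx1*, *Zic2* and *Zic5*. *Lhx2*, a LIM homeobox gene required for cortical identity, followed that order at 29.1%, 27.2%, 17.5% and 13.9%. *Lmx1b*, a LIM homeobox gene of the isthmus, ran the other way, at 26.1% in MGE, 33.0% in CGE and 38.1% in LGE, against 44.2% in CTX. *Hesx1*, an early anterior homeobox gene, had 3.26%, 19.4%, 20.3% and 19.8% in the same order. Low mean coverages were those of the photoreceptor gene *Crx*, a paralog of the Otx genes without a covered base in any list, and of *Lmx1a*, a gene of the roof plate, at 7.61% to 8.70%.

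The labelled regions were checked against 9 genes that the study places in them. Since the modification marks repressed genes, the lowest coverage would be looked for where a gene is placed. By window coverage, 6 of the 9 were lower in their own region or regions than in all other lists. The share of all genes with such an order was not determined, so this count is a description. *Nkx2-1*, the homeobox gene of the MGE, was covered over 42.7% of its window in MGE and 50.3% to 54.3% elsewhere, *Nr2f2* over 28.7% in CGE and 33.9% to 36.4% elsewhere, and *Emx1* over 14.7% in CTX and 25.3% to 28.5% in the GEs. *Dlx2* (41.9% to 48.6% in the GEs and 49.1% in CTX), *Gad1* (13.0% to 13.2% and 13.4%) and *Neurod6* (4.33% in CTX and 4.68% to 4.96% in the GEs) differed by less. *Lhx6* and *Neurod2* were lowest in LGE (26.8% and 47.9%) and *Sp8* in CTX. Promoters separated the regions less. Those of *Nkx2-1* and *Lhx6* were covered over 100% in every list, and those of *Dlx2*, *Gad1* and *Neurod6* over 0%. The *Emx1* promoter was covered over 97.35% in CTX and 97.85% to 100% in the GEs, and that of *Nr2f2* over 54.55% in CGE and 54.85% to 100% elsewhere. The *Neurod6* body was also uncovered in every list, so its window coverage lay in the flanks. No list was free of the modification at its own markers, and the part of other cells in the lists was not tested.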

How the data were processed

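Per the study's methods, the authors mapped read pairs with Bowtie2 to GRCm38 (mm10), discarded blacklisted regions and PCR duplicates (Picard), combined the samples of each region with SAMtools and called broad peaks with MACS, whose version and control are not given in the sources used here. The deposited lists hold the position of each peak with its score, its fold enrichment (ratio over local background), the −log10 of a p-value and the −log10 of a q-value. The deposited score and −log10 p were not used. The deposited fold and −log10 q served for ranking and filtering peaks of 1 list, and are set side by side between lists as descriptions, since q depends on width and depth, and all deposited q-values were under 0.1. The lists carry no read counts, so depth per peak is unknown and no counting interval is given. The study's methods do state a read depth for each replicate. The deepest MGE replicate was shallower than the deepest of each other region, and these depths were not used here. A merged list weighs samples by their reads, and a deeper library can yield more and weaker peaks.

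Coverage was computed with Python 3.11.15, pandas 2.3.3 and numpy 2.4.6 over GENCODE M21 genes on 20 chromosomes, with functions tested on simulated data. The named genes were the 10 members, protein-coding genes in their windows, the 6 widest ranges and the 3 lowest means of the axis list, the 3 genes nearest to the member with the widest range, and 9 region markers. Items of the axis list that entered its counts and are not named are not reported here. Members and lists were chosen with earlier results of these data known. *Gm5089*, *Ehbp1*, *Agap3* and *2610035F20Rik* are named as neighbours, the last chosen after its values were seen. The alternatives tried were joining of peaks less than 3 kb apart, a q-value under 0.001, equal numbers of peaks, equal covered bases, the gene body alone, flanks of 5 or 20 kb, a range of 20 points, other promoter rules and overlapping windows joined.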

Additional observations from a re-analysis of the deposited data

How the results depend on the processing

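No paired analysis was possible because peaks were called on merged samples, and for the same reason no replicate could be left out in turn. The number of promoters without a covered base in all lists went from 1 (*En2*) to 0 with a promoter that spanned the 5′ end by 2 kb on each side. The median window coverage over the 10 genes, 40.9% as the mean of the 4 lists, was 59.5% with peaks less than 3 kb apart joined, 42.0% for the gene body alone, 45.0% with flanks of 5 kb and 34.3% with flanks of 20 kb. The median difference of the GEs from CTX, 2.00 points, was 2.28 at a q-value under 0.001, 4.22 with joined peaks, 3.10 with equal covered bases, 0.922 for the gene body alone, 3.24 with flanks of 5 kb and 1.37 with flanks of 20 kb. With overlapping windows joined into 8 loci, chosen after seeing the data, these medians were 42.1% and 0.920 points. The cause of these shifts was not tested, apart from the windows and joins that set them directly. Promoters marked in all lists numbered 3 to 6 (4 as reported), and genes ranging over 10 points or more 4 to 6 (4 as reported). A range of 20 points was reached by 3 genes, and one of 10 points by 3 of the 8 joined loci.

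The number of genes with the GEs 10 points or more above CTX was 3 or 4 under all alternatives, which for this count were added after seeing the data. The genes were not the same throughout, since with joined peaks *Zic4* (14.5 points) took the place of *Gbx2* (1.19). The difference stayed between 23.5 and 63.3 points for *Zic2*, 27.3 and 48.4 for *Zic5*, and 11.5 and 35.5 for *Otx1*. It ran from 0 to 21.7 for *Gbx2*, from 2.27 to 14.5 for *Zic4*, and from −15.1 to −2.72 for *Otx2*, and from −4.17 to −0.0870 for *Gbx1*. *En1* (−7.11 to 2.48), *En2* (−1.25 to 1.77) and *Zic1* (−1.48 to 7.26) changed sign between alternatives. Over all genes, 0.239% to 0.46% lay 10 points or more above CTX when the peak lists were treated differently.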
